A study of Mus musculus with 24 samples.

Results

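Absorptive enterocytes (AE) are the differentiated cells that cover the small intestinal villi. They take up and process nutrients through a brush border of microvilli, and they arise from stem cells (ISC) by way of transit amplifying cells (TA) in the crypts. Smarcad1 is an ATP-dependent chromatin remodelling factor with roles in gene silencing and heterochromatin maintenance. The comparison here was between AE from Smarcad1 knockout (KO) mice, KO-AE, and AE from wild type mice, WT-AE. It covered every gene in the deposited tables of differentially expressed genes for ISC, TA, AE and colonic epithelial cells (CO). With duplicates dropped, the 4 tables held 82 genes. Of these, 20 were rows of the AE table and are called listed, and the other 62 were rows of other tables only.

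The series comprised 24 libraries in 8 groups, and 6 libraries were from AE, 3 for each genotype. All mice were male C57BL/6 with the strain label Lgr5-GFP, an allele that marks stem cells and that both AE groups shared, and no ages or treatments were given for these groups. In the KO, Vil-Cre, which is driven by the villin promoter and so acts throughout the intestinal epithelium, removed the floxed exons of Smarcad1. The KO line came from 1 targeted ES cell clone, and whether the WT mice carried floxed alleles or Cre is not given in the sources used here. AE were isolated from villi by pipetting without enzymes, and 100000 Epcam-high cells without CD31, CD45 or DAPI signal were sorted per sample. ISC and TA came from enzyme-digested crypts, so cell type and isolation cannot be told apart.

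Each value is the authors' mean of a group on a log2 scale of normalised reads, so neither an SD nor a test could be derived and every difference below is a description. A gene is in the AE table when the authors' DESeq2 test on these same libraries passed a false discovery rate (FDR) limit of 0.1. Listing is therefore their call on the difference being described. Values are not corrected for gene length. Levels of different genes are ranked only after division by merged exon length, which covers all annotated isoforms. Sums over marker genes are without that division and are compared only between genotypes. In bulk RNA, fewer cells of a type and less RNA per cell cannot be told apart.

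Smarcad1 itself stood at 3.67 in KO-AE and 4.27 in WT-AE, a log2 difference of −0.60, so that KO-AE held 66.0% of the WT-AE level. It was not listed for AE. WT-AE had the lowest Smarcad1 level of the 4 WT groups, against 5.62 in WT-ISC, 5.36 in WT-TA and 5.44 in WT-CO. The KO minus WT differences there were −0.77, −0.88 and −0.87. Reads were summed over all merged exons of the gene, so the deleted exons cannot be seen on their own, and remaining reads say nothing of protein. The authors quantified the floxed exons separately in WT and KO, AE included. They report that Smarcad1 protein was not detectable after the deletion in various cell types.

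Of the 20 listed genes, 17 were higher and 3 were lower in KO-AE. Their median log2 difference was 0.93, against −0.11 over all 82 genes. A log2 difference of at least 1, which is 2-fold, was reached in the KO direction by 13 of the 82 genes (15.9%), of which 10 were listed, and in the WT direction by 3 (3.66%), none of them listed. Counting both directions gave 16 genes (19.5%). Bglap3 led with 36.4-fold, followed by Mt1 with 9.38-fold, AC151971.2 with 6.23-fold, Lyz1 with 4.30-fold, Rtn4r with 3.92-fold and Itln1 with 3.39-fold. The 3 lower genes, Ifit1, Pmp22 and Lama3, kept 54.8%, 55.5% and 58.0% of their WT-AE level.

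**Figure D1:**
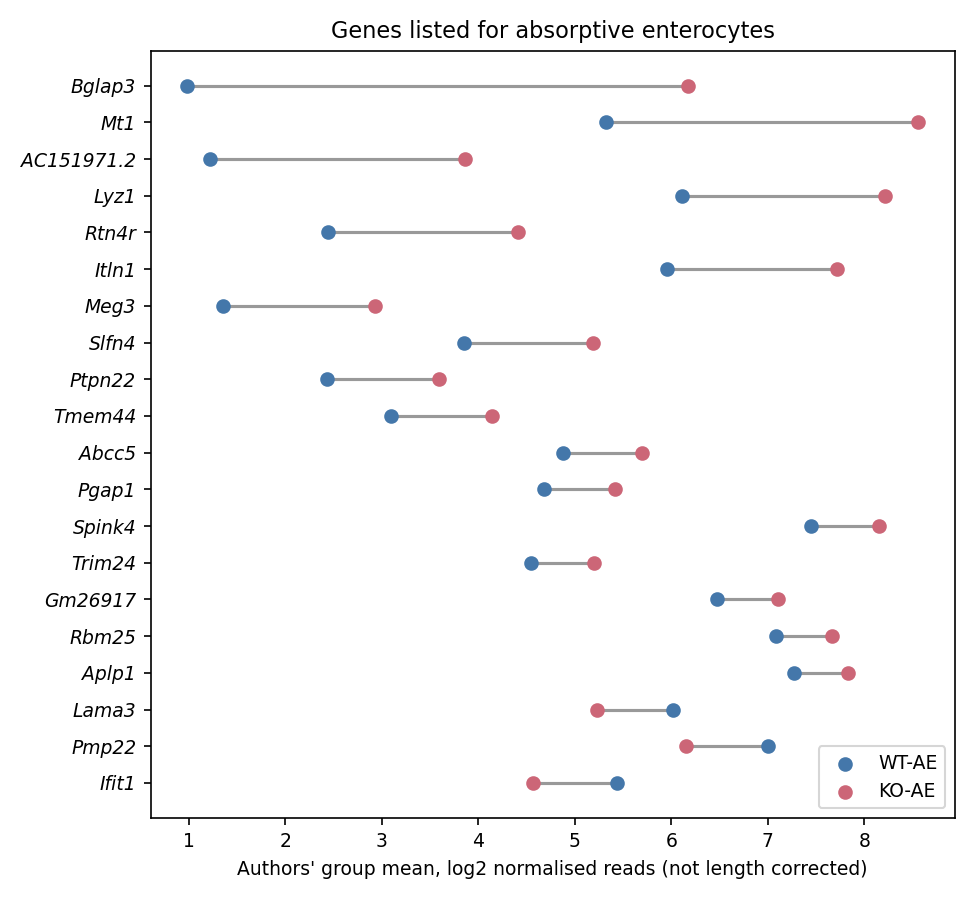
Group means in WT-AE and KO-AE for the 20 genes listed for AE, as log2 normalised reads on the x axis, with genes ordered by their difference and a grey line joining both means. KO-AE lies to the right of WT-AE for 17 genes and to the left for Lama3, Pmp22 and Ifit1, and no spread between libraries can be drawn from group means.

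Promoters of a pair of listed genes are shown because they hold the letters by which the best known inducers of these genes are recognised. Mt1 encodes metallothionein, whose transcription is switched on by metals through the metal response element, and Ifit1 is a classical interferon-stimulated gene with interferon-stimulated response elements. Both windows run from 250 bases before to 50 bases after the RefSeq start in GRCm38.p6, on the plus strand, for Mt1 at chr8:94178839-94179138 and for Ifit1 at chr19:34640639-34640938. Capitals mark matches on either strand to TGCNCNC, the core of the metal response element, in Mt1 and to GAAANNGAA, the core of the interferon-stimulated response element, in Ifit1. The first pair of matches in Ifit1 overlaps and forms a single run.
Mt1: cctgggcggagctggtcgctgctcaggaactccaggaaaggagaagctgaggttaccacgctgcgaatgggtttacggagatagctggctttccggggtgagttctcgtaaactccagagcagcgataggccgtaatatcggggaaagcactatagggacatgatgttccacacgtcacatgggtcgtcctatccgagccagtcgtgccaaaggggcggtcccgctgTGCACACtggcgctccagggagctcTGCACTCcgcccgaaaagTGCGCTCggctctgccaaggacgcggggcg
Ifit1: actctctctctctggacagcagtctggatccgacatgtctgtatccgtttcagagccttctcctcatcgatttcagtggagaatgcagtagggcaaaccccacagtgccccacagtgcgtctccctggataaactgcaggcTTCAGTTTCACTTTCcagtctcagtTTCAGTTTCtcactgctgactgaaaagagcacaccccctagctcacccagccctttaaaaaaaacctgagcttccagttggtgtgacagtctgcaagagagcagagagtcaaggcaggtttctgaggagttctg

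The Mt1 window held 3 matches to TGCNCNC, a number reached by 7.10% of the 32851 RefSeq promoters of this length, while 51.0% held at least 1. The first Mt1 match lies before the RefSeq start, and the others lie after it. Abcc5 and 2 of the 4 starts of Pmp22, which was lower in KO-AE, also had 3. The Ifit1 window held 3 matches to GAAANNGAA, overlaps counted, a number reached by 0.0639% of promoters, with 8.56% holding at least 1. RefSeq promoters were matched for 16 of the 20 listed genes. Counting a gene once if any of its starts matched, TGCNCNC occurred in 11 of these and in 53.6% of all 27025 genes. GAAANNGAA occurred in 2, Ifit1 and Lyz1, and in 9.76% of all genes, and the TATA box core TATAAA in 4 and in 15.7%. These are matches of letters, not measured binding.

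Bglap3 encodes an osteocalcin-related protein of the vitamin K dependent bone protein family and lies at chr3:88368616-88372743 on the minus strand of GRCm38. Its level was 0.99 in WT-AE and 6.17 in KO-AE, the widest gap of any of the 82 genes. Per kilobase of merged exon, it ranked 19th of the listed genes in WT-AE (−0.41) and 8th in KO-AE (4.78). In WT the level was also higher in AE than in ISC (−1.96) or TA (−2.87), while WT-CO, at 1.87, was above WT-AE. In KO the AE level was the highest of the 4, against 2.73 in ISC, 3.07 in TA and 5.10 in CO. The KO minus WT difference was 4.69 in ISC, 5.94 in TA and 3.24 in CO, so KO was higher in every cell type. With 1 added to the linear values, these became 2.60, 3.05 and 2.93, and 4.62 in AE. Of its 50-base stretches, 11.5% also occur in other genes, mainly Bglap2, whose reads may be shared or lost when only unique alignments are kept.

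Mt1 (chr8:94179082-94180327, plus strand) binds zinc and copper and buffers their free concentration. It went from 5.33 in WT-AE to 8.56 in KO-AE, a difference of 3.23. This reordered the cell types: WT-AE had the lowest Mt1 level of the 4 WT groups, below WT-ISC (6.29), WT-TA (6.27) and WT-CO (6.46), whereas KO-AE had the highest of the 4 KO groups. Mt1 was higher in KO in the other cell types as well, by 1.53, 1.36 and 2.01 in ISC, TA and CO. The other measured gene of the metal handling list, transferrin (Trf), stood at 2.42 in KO-AE and 2.68 in WT-AE and was not listed. The remaining 8 of the 10 genes in that list were not analysed here.

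Per kilobase, Mt1 moved from rank 6 (5.01) in WT-AE to rank 2 (8.24) in KO-AE among the listed genes. Summed over the 17 higher genes, the gain in linear normalised reads per kilobase came to 29.6% from Mt1, 25.6% from Spink4, 19.8% from Lyz1 and 14.3% from Itln1. Those 4 secretory or metal-binding genes thus made 89.2% of it. Bglap3, with the largest fold, made 2.92%. Merged exons cover all annotated isoforms and can be longer than a mature transcript, so these shares and ranks depend on the annotation. The merged exons of Mt1, for example, fill its whole gene span of 1246 bp. Without the division, the linear gain was 337 for Mt1, 228 for Lyz1, 149 for Itln1, 111 for Spink4 and 70.2 for Bglap3.

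Lyz1, Itln1 and Spink4 are genes of secretory lineage cells. Lyz1 encodes the lysozyme of Paneth cells, the antimicrobial cells of the crypt base. Itln1 encodes intelectin, a lectin of Paneth and goblet cells that binds microbial glycans, and Spink4 encodes a Kazal-type protease inhibitor of goblet cells. Lyz1 (chr10:117287797-117292868, minus strand) was 8.21 in KO-AE and 6.11 in WT-AE. Itln1 (chr1:171518122-171535294, minus strand) was 7.72 and 5.96, and Spink4 (chr4:40920052-40931395, plus strand) was 8.16 and 7.44. All of these genes were higher in KO-AE, by 2.11, 1.76 and 0.71.

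Lyz1 and Itln1 were far below their crypt levels in AE of either genotype. WT-AE held 8.32% of the WT-ISC level of Lyz1 and 12.4% of that of Itln1, and KO-AE held 15.6% and 12.8% of the KO-ISC levels. In ISC and TA the KO was also higher, by 1.20 and 1.64 for Lyz1 and by 1.72 and 1.38 for Itln1. For Spink4, WT-AE was at 103% of WT-ISC and KO-AE at 89.8% of KO-ISC, but against TA these shares were 30.9% and 51.2%. Against TA, Lyz1 was at 12.4% in WT-AE and 17.1% in KO-AE, and Itln1 at 14.5% and 18.8%. The KO minus WT difference of Spink4 was 0.92 in ISC, −0.01 in TA and 0.26 in CO. Of the 50-base stretches of Lyz1, 16.1% also occur in other genes, mainly Lyz2.

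Markers of other cell types were read where they occurred among the 82 genes. These included 2 of 8 Paneth markers (Lyz1 and Itln1), whose summed linear level was 131 in WT-AE and 507 in KO-AE, and 1 of 8 goblet markers (Spink4), at 174 and 285. Stem cells were represented by 1 of 5 markers, Ascl2, a transcription factor of crypt stem cells, at 0.88 in WT-AE and 0.85 in KO-AE on the linear scale. Of 9 leucocyte markers, Ptpn22 and Cd244 were held, at 6.43 in WT-AE and 12.4 in KO-AE in sum. The rise was that of Ptpn22 (5.39 to 12.1), which is listed, while Cd244 fell (1.04 to 0.37). The other markers of these lists, and all of the enteroendocrine, tuft, stromal, endothelial and nerve lists, were not analysed here. The part of secretory cells among the sorted villus cells in the differences of Lyz1, Itln1 and Spink4 was not tested.

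The label of the sort could be checked against 2 of 15 enterocyte markers. Mep1a, the alpha subunit of the brush border protease meprin, was 7.92 in WT-AE against 5.72 in WT-ISC. Clca4b, of the Clca family, was 10.16 against 8.48. Their sum was 1389 in WT-AE and 1139.5 in KO-AE, with differences of −0.25 and −0.29. Other genes of absorptive cells in the tables showed the same WT pattern. Slc6a19, the apical transporter of neutral amino acids, stood at 9.43 in WT-AE and 2.94 in WT-ISC. Cdhr2, a cadherin that links microvilli, stood at 10.93 and 7.55, and Apob, the scaffold of chylomicrons, at 12.20 and 8.32. None of these was listed for AE, and their differences were −0.07, −0.13 and −0.41. The median of the unlisted genes was −0.16. After centring on it, Slc6a19 and Cdhr2 turn positive, while Apob, Mep1a and Clca4b stay negative.

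Genes known from nerve or myelin formed another group among the listed genes. Rtn4r, the Nogo receptor that restrains axon growth, was 4.42 in KO-AE and 2.45 in WT-AE. Aplp1, a member of the amyloid precursor protein family of neuronal membranes, was 7.83 and 7.27. Pmp22, a membrane protein of peripheral myelin that is also made in epithelia, was 6.15 and 7.00. The group did not share a direction: 2 were higher, by 1.97 and 0.56, and Pmp22 was lower by 0.85. Mal, a proteolipid of myelin, lymphocytes and apical epithelial membranes, was not listed and lay at −0.50 in KO-AE and −1.31 in WT-AE.

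The differences of these genes in the other cell types were of other sizes. Rtn4r was higher in KO by 1.20, 0.95 and 0.42 in ISC, TA and CO. Aplp1 differed by 2.68, 0.91 and 2.89 in ISC, TA and CO, where its WT levels were 2.39, 5.08 and 3.40, below the 7.27 of WT-AE. Its AE difference was thus the lowest of the 4, in the WT cell type with the highest level.

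Immune-associated genes were listed in both directions. Ifit1 (chr19:34640871-34650009, plus strand), which binds foreign RNA and is induced by interferon, was 4.57 in KO-AE and 5.44 in WT-AE. Slfn4, a schlafen gene induced by interferon in myeloid cells, was 5.19 and 3.85. Ptpn22, a tyrosine phosphatase that damps lymphocyte receptor signalling, was 3.59 and 2.43. Ifit1 was thus lower by 0.87, and Slfn4 and Ptpn22 were higher by 1.34 and 1.16. Of the 5 measured genes in the interferon-associated list, only Slfn4 was higher in KO-AE, also after centring on the median of the unlisted genes. Apobec3, a cytidine deaminase that restricts retroviruses, was at 2.89 in KO-AE and 3.84 in WT-AE. The radical-SAM antiviral enzyme gene Rsad2 was at 2.80 and 3.21, and Irf7, a transcription factor for interferon genes, at 6.70 and 6.87. These last 3 were not listed for AE. Of the 50-base stretches of Slfn4, 11.3% also occur in other genes, mainly Slfn3.

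Ifit1, Pmp22 and Lama3 moved together within each of ISC, AE and CO, but not in the same direction across these cell types. Lama3 (chr18:12333819-12583013, plus strand) encodes an alpha chain of the laminins of epithelial basement membranes, and was 5.23 in KO-AE and 6.02 in WT-AE, lower by 0.79. All 3 genes were lower in KO in AE and in CO and higher in KO in ISC. Of all 82 genes, 49 were lower in KO in AE, 56 were lower in CO and 60 were higher in ISC. Each of these directions was thus the more common one. Unlisted genes had the same pattern, among them Rsad2, with −0.40 in AE, −2.59 in CO and 3.04 in ISC. The pattern is therefore not particular to Ifit1, Pmp22 and Lama3. In CO the differences were −2.36 for Ifit1, −2.09 for Pmp22 and −2.38 for Lama3. In ISC they were 1.91, 1.82 and 1.02, and in TA −0.36, 3.31 and 0.34. Crypt levels were low, and with 1 added to the linear values the ISC differences were 0.97, 1.41 and 0.69, that of Pmp22 in TA was 1.70, and that of Ifit1 in CO was −1.66. None was listed for ISC, TA or CO. In WT, each was over 4-fold higher in AE than in ISC or TA: Ifit1 stood at −0.91 in WT-ISC, Pmp22 at 0.95 and Lama3 at 0.60. The difference between cell types was not tested.

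**Figure D2:**
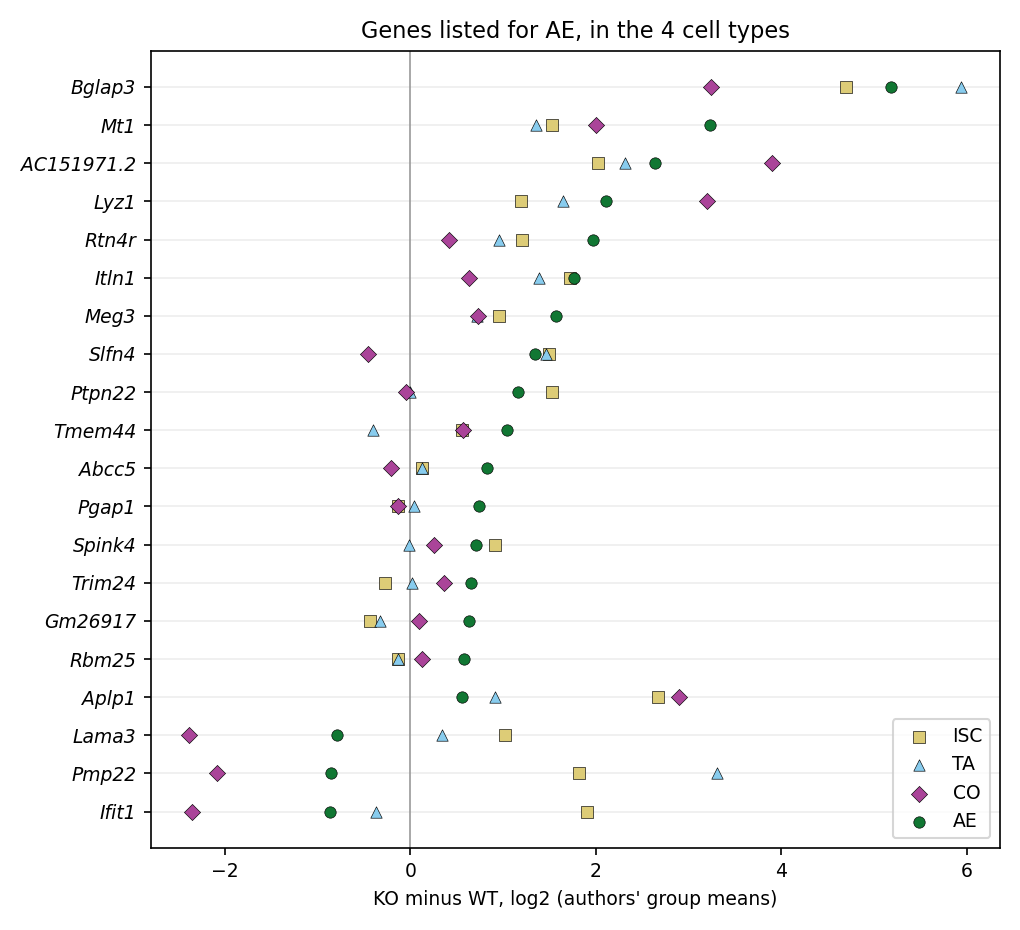
KO minus WT differences of the authors' group means (log2, x axis) for the 20 genes listed for AE in ISC (squares), TA (triangles), CO (diamonds) and AE (circles), ordered by the AE difference. Mt1 and Rtn4r are among the genes with their highest value in AE, Rbm25, Gm26917, Trim24, Pgap1 and Abcc5 lie within 0.5 of 0 in the other cell types, and Lama3, Pmp22 and Ifit1 lie left of 0 in AE and CO and right of it in ISC.

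The basement membrane list held 2 more measured genes, neither listed for AE. Lamb3, a beta chain of the same laminin family, was 4.19 in KO-AE and 4.71 in WT-AE. Pxdn, a peroxidase that crosslinks collagen in basement membranes, was near the low end of the scale in AE, at −0.07 and −0.36.

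Rbm25, Trim24, Pgap1, Abcc5 and Gm26917 are described together because of their values in the other cell types, a choice made after these were seen. Rbm25, a splicing regulator, was 7.67 in KO-AE and 7.09 in WT-AE. Trim24, a chromatin reader and cofactor of nuclear receptors, was 5.20 and 4.55. Pgap1, which trims the lipid of GPI anchors in the endoplasmic reticulum, was 5.42 and 4.68. Abcc5, an ATP-driven exporter of cyclic nucleotides and other organic anions, was 5.70 and 4.87, and the long non-coding RNA Gm26917 was 7.10 and 6.47. KO-AE thus stood between 149.5% (Rbm25) and 177% (Abcc5) of the WT-AE level in these 5 genes.

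These 5 genes were also the listed ones whose differences in ISC, TA and CO all stayed under 0.5 in size, with a largest value of 0.43. None of the 62 unlisted genes met that limit, but each of those had been listed for another cell type, which requires a difference there. In WT, Rbm25, Trim24, Pgap1 and Gm26917 had their lowest level in AE. WT-AE held 57.9% of the WT-ISC level of Rbm25, 64.2% of that of Pgap1 and 20.4% of that of Trim24. In KO these shares of the KO-ISC level were 94.4%, 117% and 39.0%. With Mt1, 5 listed genes had WT-AE as the lowest WT group, all 5 were higher in KO-AE, and and KO-AE was the lowest KO group for 2 listed genes, Trim24 and Spink4. WT-AE enters both the WT order and the KO difference, so these quantities are not independent. Hist1h1c, a linker histone gene of the same list, was not listed for AE and stood at 5.63 in KO-AE and 5.89 in WT-AE.

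**Figure D3:**
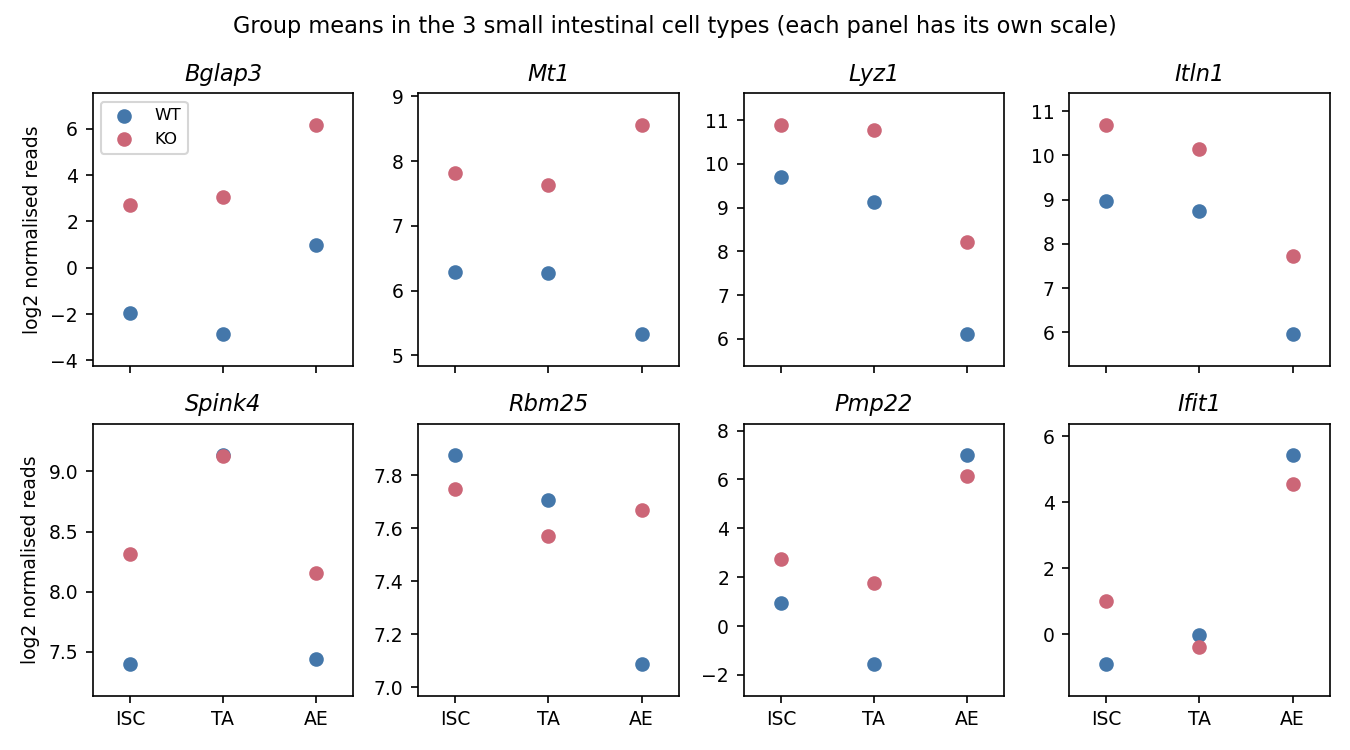
Authors' group means (log2 normalised reads, y axis, each panel on its own scale) in ISC, TA and AE for WT and KO, for 8 of the listed genes. Mt1 is lowest in AE in WT and highest in AE in KO, Lyz1 and Itln1 are lowest in AE in both genotypes, Rbm25 is lower in AE than in TA in WT but not in KO, and Pmp22 and Ifit1 are highest in AE in both.

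Non-coding genes made 3 of the 20 listed genes, and all 3 were higher in KO-AE. So were 14 of the 17 listed protein coding genes, so this direction is not particular to non-coding genes. Of all 82 genes, 78 were protein coding. AC151971.2 (chr9:44670453-44672238, minus strand) was 3.87 in KO-AE and 1.23 in WT-AE. It was also higher in KO by 2.03, 2.32 and 3.91 in ISC, TA and CO. Meg3, an imprinted RNA expressed from the maternal chromosome, was 2.93 and 1.36 in AE, with differences of 0.96, 0.72 and 0.73 in ISC, TA and CO. Both started from low WT-AE levels, and Meg3 had the lowest level per kilobase of the listed genes in either genotype (−2.82 in WT-AE and −1.24 in KO-AE). Meg3 overlaps the antisense gene Gm26906. Strand use in counting is not given in the sources used here, so their reads cannot be told apart. AY036118, a ribosomal RNA-like transcript that was not listed for AE, stood at 2.51 in KO-AE and 2.85 in WT-AE. All of its 50-base stretches occur in another gene, Gm42418. On chromosome 17, AY036118 (39847113-39848035) lies beside the listed Gm26917 (39843013-39846341), which was higher in KO-AE. The part of ribosomal RNA in the difference of Gm26917 was not tested.

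Tmem44, which encodes a transmembrane protein, was 4.14 in KO-AE and 3.10 in WT-AE. Together with Rtn4r and Abcc5 it made 3 listed genes on chromosome 16, all higher in KO-AE, and they were 2178895 and 10085461 bases apart. No other chromosome held more than 2 listed genes. The unlisted B3galt5 also lies on chromosome 16. Since 17 of the 20 listed genes were higher in KO-AE, the shared direction of Tmem44, Rtn4r and Abcc5 is not particular to that chromosome. Grouping by chromosome was not tested.

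Of the higher listed genes, 7 had a KO minus WT difference of at least 0.5 in each of the other cell types: AC151971.2, Aplp1, Bglap3, Itln1, Lyz1, Meg3 and Mt1. For Meg3 this rested on levels near the floor in the crypt (−5.44 in WT-ISC), and with 1 added to the linear values its differences were 0.03 in ISC and 0.25 in TA. That of Itln1 in CO was then 0.37. Unlisted genes also met the limit of 0.5 in ISC, TA and CO, among them Bambi, Gsta3, Slc1a4 and Clca4b. Clca4b was lower in KO-AE. Meeting that limit is therefore not particular to the listed genes. Of the 20 listed genes, 7 were listed for at least 1 more cell type. The 13 listed for AE alone had a median difference of 0.71, and the other 7 had one of 2.11, all higher in KO. Of the 17 genes higher in KO-AE, 13 were higher in KO-ISC (76.5%) and 12 in KO-TA (70.6%), close to the 73.2% and 69.5% of all 82 genes. In KO-CO 13 were higher (76.5%), against 31.7% of all 82 genes, most of which had been listed for CO.

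Per kilobase of merged exon, the order of the listed genes in WT-AE was led by Spink4 (8.51), Lyz1 (5.77), Itln1 (5.77), Pmp22 (5.76), Aplp1 (5.67) and Mt1 (5.01). In KO-AE it was led by Spink4 (9.23), Mt1 (8.24), Lyz1 (7.88), Itln1 (7.53) and Aplp1 (6.24). Pmp22 went from rank 4 to rank 7 and Ifit1 from rank 8 to rank 13. Without library values, neighbours in these orders cannot be separated by their spread. Against the crypt, 8 of the 20 listed genes were at least 2 higher on the log2 scale in WT-AE than in WT-ISC, and 3 (Lyz1, Itln1 and Trim24) were at least 2 lower. Of the 62 unlisted genes, 31 were at least 2 higher and 8 at least 2 lower, so these counts do not set the listed genes apart.

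The 62 genes that AE did not list had a median difference of −0.16, with 16 higher and 46 lower in KO-AE. Setting that median to 0, as a different scaling of the libraries could, gives 31 and 31 by construction. Of the 16, Khdc1a, Mctp1 and Abca12 were at the lowest value of both groups (−5.13 and −5.17), which is a shared floor and not a difference. The majority, 44 genes, came from the CO table as lower in KO there, and 37 of these were also lower in KO-AE, with a median of −0.18, or 24 after that centring. The 11 genes listed for ISC or TA but not for CO split into 5 higher and 6 lower, also after centring, with a median of −0.29 before it. Among unlisted genes with WT-AE at least 2 above WT-ISC, 25 of 31 were lower in KO-AE, with a median of −0.16, or 15 after centring. The counts of 17 higher and 3 lower listed genes did not move with it.

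**Figure D4:**
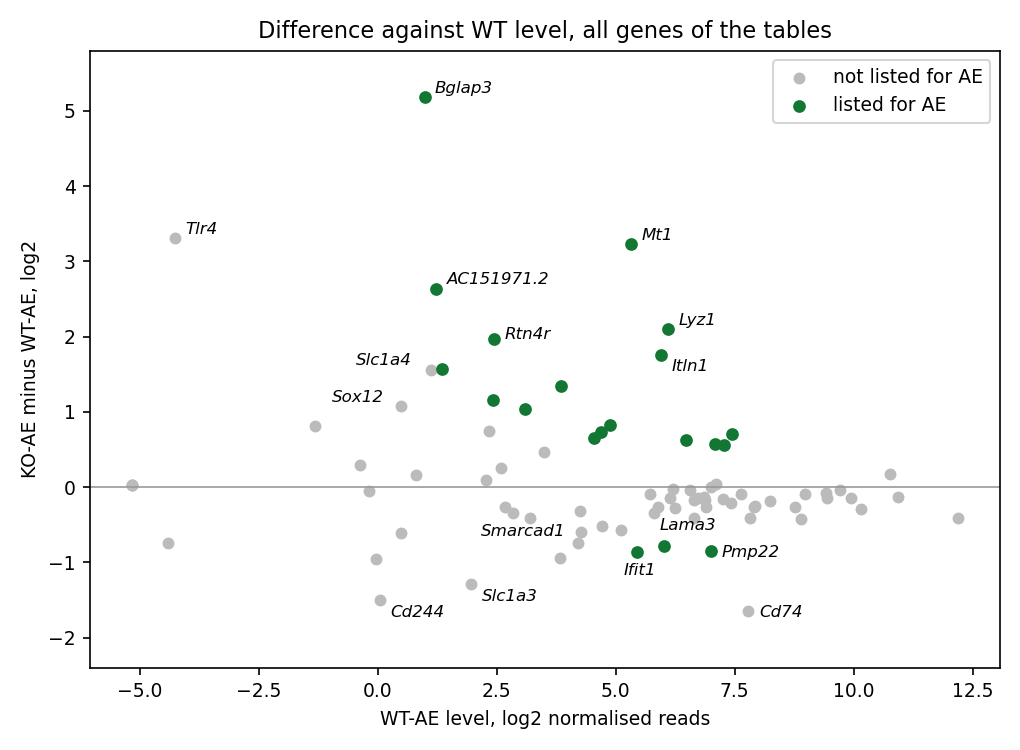
KO-AE minus WT-AE (log2, y axis) against the WT-AE level (log2 normalised reads, x axis) for the 82 genes, listed genes in green and unlisted genes in grey. Most unlisted genes with a WT-AE level above 5 lie within 0.5 of 0 and slightly below it, Cd74 being lower by 1.64, and Tlr4 sits high at the left edge, where levels are lowest.

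The unlisted genes with the widest gaps on a scale with 1 added to the linear value were Slc1a4, Sox12, Gsta3, Tlr4 and B3galt5 on the higher side, and Cd74, Slc1a3, Apobec3, Gprc5a and Cd244 on the lower side. Slc1a4, a carrier of small neutral amino acids, was 2.68 in KO-AE and 1.11 in WT-AE, and its relative Slc1a3, a glutamate and aspartate carrier of high crypt level, was 0.68 and 1.96. The pair thus lay 1.56 above and 1.28 below WT. Cd74, the invariant chain that loads MHC class II, was 6.15 and 7.79. The other measured gene of antigen presentation, H2-Q1 of MHC class I, was 7.10 and 7.26, a gap whose sign turns after centring. Cd244, a receptor of natural killer and T cells, was −1.44 and 0.06, opposite in direction to Ptpn22.

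Sox12, a transcription factor gene, stood at 1.56 in KO-AE and 0.48 in WT-AE. Gsta3, a glutathione transferase, was 3.10 and 2.34, the sole one of 7 measured genes for detoxification and fatty acid oxidation that was higher. B3galt5, a galactosyltransferase for glycan chains, was 3.96 and 3.49, and Gprc5a, an orphan receptor gene induced by retinoic acid, was 3.46 and 4.21. Tlr4, the lipopolysaccharide receptor, was −0.95 in KO-AE and −4.25 in WT-AE. Its log2 difference of 3.31 shrank to 0.53 with 1 added to the linear values. Tlr2, the receptor for bacterial lipopeptides, stood at −0.11 and 0.49.

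The other 6 genes for detoxification and fatty acid oxidation, among them the carboxylesterase Ces2e (9.80 in KO-AE and 9.94 in WT-AE), were lower by at most 0.28, and after centring on the unlisted median 2 of the 7 were lower and 5 higher. The solute and drug transport list had 9 measured genes, with differences from −1.28 for Slc1a3 to 1.56 for Slc1a4. Abcc5 and Slc1a4 were higher, Abca12 was at the floor, and 6 were lower, with a list median of −0.26. Of the BMP and Wnt genes, Bambi, a decoy receptor for BMP signals, was 2.85 and 2.59, in contrast to its KO minus WT differences of 2.29, 1.75 and 2.30 in ISC, TA and CO. Fzd5, a Wnt receptor, was 7.15 and 7.11, and Lrp1, an endocytic receptor, was 8.89 and 8.98.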

How the data were processed

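Poly(A) libraries (NEB Ultra II Directional) were sequenced as 50 bp single-end reads. The authors trimmed reads with Trim Galore 0.4.4 and mapped them to GRCm38 with HISAT2 2.1.0 without soft clipping, both also named in the submitters' processing notes. The authors counted uniquely mapped reads over merged exons in SeqMonk and tested raw counts with DESeq2. The deposited values are log2 group means per genotype and cell type, normalised to total reads by the authors, without library values. Depth and precision are therefore unknown. Their FDR columns hold the authors' comparisons and were not used, beyond row membership. Genes sharing the lowest value ranged from 1987 to 14808 bp in merged exon length, so no length correction had been made.

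KO-AE minus WT-AE was taken per gene over the union of the tables (python 3.11.15, pandas 2.3.3, numpy 2.4.6). Genes were matched to GENCODE M21 for length, biotype and shared 50-mers, and to RefSeq promoters. Eligible to be named were all listed genes, Smarcad1, the 5 higher and 5 lower unlisted genes with the largest difference on log2(value + 1), and measured members of the gene and marker lists, 1 of which is not reported here while others are given by counts and ranges. Slc6a19, Cdhr2, Apob, Khdc1a, Mctp1 and the motifs were chosen after values were seen. Members and lists were chosen with earlier results of these data known. Scripts were tested on simulated data.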

Additional observations from a re-analysis of the deposited data

How the results depend on the processing

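The counts of 17 higher and 3 lower listed genes stayed within 1.5 times under each filter and under centring. Their median of 0.93 became 0.82 over protein coding genes, 0.73 without genes sharing at least 10% of their 50-mers, and 1.09 after centring on the median of the unlisted genes, a shift of 0.16. For the unlisted genes, 16 higher and 46 lower became 31 and 31, and the median 0, after centring by construction. The higher count was 10 once genes below 0 on the log2 scale in both AE groups were dropped. Without genes listed in CO, 5 were higher and 6 lower, with a median of −0.29, fewer genes being left. With a pseudocount of 1, 11 in place of 16 genes differed by at least 1. Smarcad1 was −0.44 after centring. Among the 20 listed genes and the 10 widest unlisted ones, no sign changed under the pseudocount, the floor or the centring. Without library values, leaving out a library could not be run, and depth limits cannot be stated. No paired analysis was possible because the tables hold group means only.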
